A study of Mus musculus with 7 samples.

Results

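Cytosolic ribosomal protein genes were followed through H3K27me3 chromatin immunoprecipitation and sequencing of mouse spermatocytes. Members were the gene symbols present once in the count files of both stages that begin with Rpl or Rps followed by a number, with at most a short suffix, so that Rps6k kinase genes and entries with a -ps suffix were left out. They numbered 81 of 23220 single-entry symbols, 49 of the large subunit and 32 of the small subunit. The cells were wild-type CD1 spermatocytes from testes of postnatal day 12 (P12) and postnatal day 17 (P17), released by trypsin and collagenase, fractionated through Percoll and fixed with formaldehyde. Both groups carried the same genotype and were precipitated with the same H3K27me3 antibody; the P12 file holds 1 replicate and the P17 file pools 2. Of 7 samples in the series, these 2 hold gene counts and were used; the input libraries were not analysed here. The purity of the fractions is not given in the sources used here, and reads on chromatin do not measure expression, so the labelled cell type could not be checked against expressed markers.

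The ribosome is built of ribosomal RNA and ribosomal proteins, each encoded in most cases by a single active gene among many processed pseudogenes. Nearly all cells transcribe these genes at high rates from short, CpG-rich genes. H3K27me3 is laid down by Polycomb repressive complex 2 (PRC2), mainly at silent developmental genes with CpG-rich promoters. In male meiosis the X chromosome is silenced, and autosomal near relatives of X-linked ribosomal protein genes, such as Rpl10l, are known from germ cells.

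Promoter stretches of 6 members are shown first as sequence only, and no relation of sequence to reads was tested. They are those of Rpl3l and Rps15a, which held the most reads, Rpl39l and Rpl10l, the germ cell relatives, and their X-linked partners Rpl39 and Rpl10. Each stretch has 80 bases, 60 before the RefSeq start and the rest from it, written 5′ to 3′ on the gene's strand in build GRCm38.p6, with every CpG in capitals. These positions belong to GRCm38.p6 and were not set against the mm9 peaks. Rpl3l at chr17:24727766-24727845 (+), the first of its 2 RefSeq starts, held 103 and 201 reads over its gene body at P12 and P17.
Rpl3l: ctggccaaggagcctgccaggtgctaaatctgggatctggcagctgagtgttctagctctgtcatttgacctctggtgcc
Rpl39l, at chr16:10170168-10170247 (+), held 56 and 107 reads.
Rpl39l: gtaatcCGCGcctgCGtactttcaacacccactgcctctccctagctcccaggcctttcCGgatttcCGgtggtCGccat
Rpl39, at chrX:37085203-37085282 (-), held 19 and 23 reads.
Rpl39: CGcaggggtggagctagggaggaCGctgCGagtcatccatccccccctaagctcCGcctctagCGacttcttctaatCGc
Rpl10l, at chr12:66284382-66284461 (-), held 4 and 18 reads.
Rpl10l: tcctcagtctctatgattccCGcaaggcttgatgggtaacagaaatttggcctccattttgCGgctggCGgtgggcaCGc
Rpl10, at chrX:74270756-74270835 (+), held 9 and 18 reads.
Rpl10: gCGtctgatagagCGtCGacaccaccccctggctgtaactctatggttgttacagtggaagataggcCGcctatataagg
Rps15a, at chr7:118116128-118116207 (-), held 102 and 179 reads.
Rps15a: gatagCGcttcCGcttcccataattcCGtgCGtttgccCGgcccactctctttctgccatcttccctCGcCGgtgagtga
The Rpl3l stretch has 0 CpG, those of Rpl10l and Rpl10 have 4 each, those of Rpl39l and Rpl39 have 6 each and that of Rps15a has 7.

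RefSeq promoter windows of 300 bases (250 before the start and 50 from it) were found for 61 of the 81 members, 73 windows in all. Their median ratio of observed to expected CpG was 0.862, against 0.384 over all 32851 windows, and their median GC content was 57.7% against 52.7%. All windows here means those of 27025 genes, which were not limited to the genes of the count files or by gene type. A CpG ratio of at least 0.6 with GC of at least 50% was met by 80.8% of member windows and by 33.5% of all windows. Rpl3l stood apart, with ratios of 0.089 and 0.134 in its 2 windows. The highest ratio of any window of the next lowest gene was 0.421, and that of Rpl9 was 1.25. Rpl3l was thus both the member with the most reads and, of the 61, the member with the lowest CpG ratio; this is a single gene, and no relation was tested. The letters CCGGAAG, read by ETS-family factors, occurred on either strand in 34.2% of member windows and 8.86% of all windows. AAGATGG, the core of the YY1 motif, occurred on either strand in 16.4% and 6.34%. TATAAA occurred on either strand in 8.22% and 13.6%. CTTTC or CTTCC on the gene's strand, beginning within 5 bases of the start as in the pyrimidine-rich initiator of translation genes, was found in 21.9% and 4.59%. Motifs can overlap, since CTTCC lies within the reverse complement of CCGGAAG and can share bases with that of AAGATGG. A match is a stretch of letters and not a measured binding site.

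All 81 ribosomal protein genes held few H3K27me3 reads at both stages. Each lay below the all-gene median of 180 reads at P12 and 360 reads at P17, as did 47.4% of all genes at both stages. The lower quartile of all genes was 57 reads at P12 and 110 at P17. Below it lay 75 members (92.6%) at P12 and 76 (93.8%) at P17, against 24.9% of all genes at either stage. Members ran from 4 to 103 reads at P12, with a median of 25 and quartiles of 14 and 37. At P17 they ran from 11 to 201 reads, with a median of 43 and quartiles of 28 and 71. In counts scaled to the library total (CPM), the median member stood at 1.86 at P12 and 1.61 at P17. The library total is here the sum of gene-body counts over all entries, and not of all reads sequenced. No member was at 0 reads. Counts are per gene: gene lengths in the build of the files were not used here, so a short gene gathers few reads at any density, and the part of length in these low counts was not tested.

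**Figure D1:**
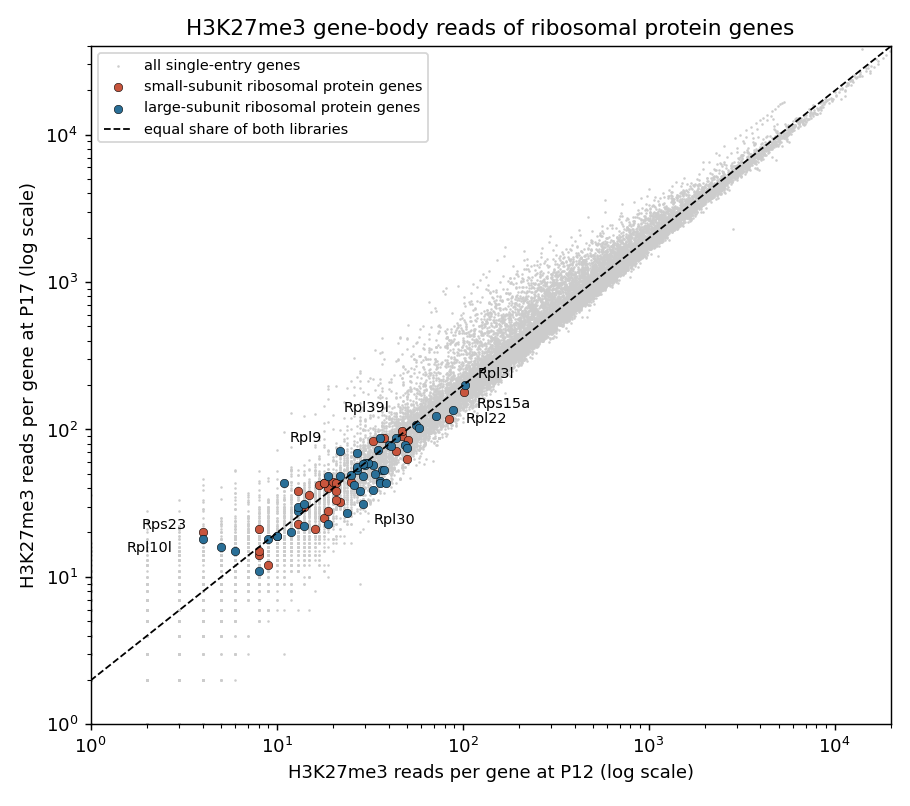
H3K27me3 reads per gene at P12 (x axis, log scale) and P17 (y axis, log scale) for all single-entry genes (grey), small-subunit (red) and large-subunit (blue) ribosomal protein genes; the dashed line marks an equal share of both libraries. Members fill the low end of the cloud, from 4 to 103 reads at P12 and from 11 to 201 at P17, and scatter on both sides of the line.

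The members with the most reads at P17 were named by rule. Rpl3l, whose protein replaces Rpl3 in ribosomes of striated muscle, held 103 reads (7.65 CPM) at P12 and 201 (7.54 CPM) at P17. Rps15a, a small-subunit gene, held 102 (7.58 CPM) and 179 (6.71 CPM). Rpl22, whose protein binds RNA outside the ribosome and is required for T-cell development, held 89 (6.61 CPM) and 135 (5.06 CPM). Even these lay at or under percentile 36.0 of all genes at P12 and 35.8 at P17. Rpl5, which forms a particle with 5S RNA that binds Mdm2, held 72 and 123 reads, and Rps3, at the mRNA entry channel, held 85 and 117. The fewest P17 reads were those of Rpl36al with 8 and 11, Rps2 with 9 and 12, Rps20 with 8 and 14, and Rps27 and Rpl36 with 8 and 6 at P12 and 15 each at P17. The order of these counts is one of reads per gene and not of H3K27me3 density.

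Between P12 and P17, with counts scaled to library totals, no ribosomal protein gene was over 2-fold different with a counting interval that excluded a ratio of 1; with TMM or median-of-ratios factors 1 gene, Rpl37a, was over 2-fold higher. With 1 file per stage, that of P17 a pool of 2 replicates, there is no replicate check, and intervals cover counting error only. Every member held more reads at P17, but the P17 library total was 1.98 times that of P12. Counts were therefore compared as shares of the library total. The log2 ratio P17/P12 of these shares had a median of -0.06 over the 80 members with at least 20 reads over both libraries, against -0.08 over 21808 such genes (0.01 and -0.002 with TMM factors). The remaining member, Rpl36al, had fewer reads. By the call of over 2-fold with an interval excluding 1, 0 of 80 members were higher and 0 lower, where 2.57% of all genes were higher and 0.335% lower. The lower and upper quartiles of the members were -0.34 and 0.14, and their standard deviation over genes was 0.41, against 0.39 over all genes. The intervals of members were wide, with a median width of 1.502 on the log2 scale against 0.501 for all genes. Counting error thus takes a larger part in the standard deviation of the members, and the 2 spreads are not alike in this. Small differences in a single typical member were not detectable at this depth.

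**Figure D2:**
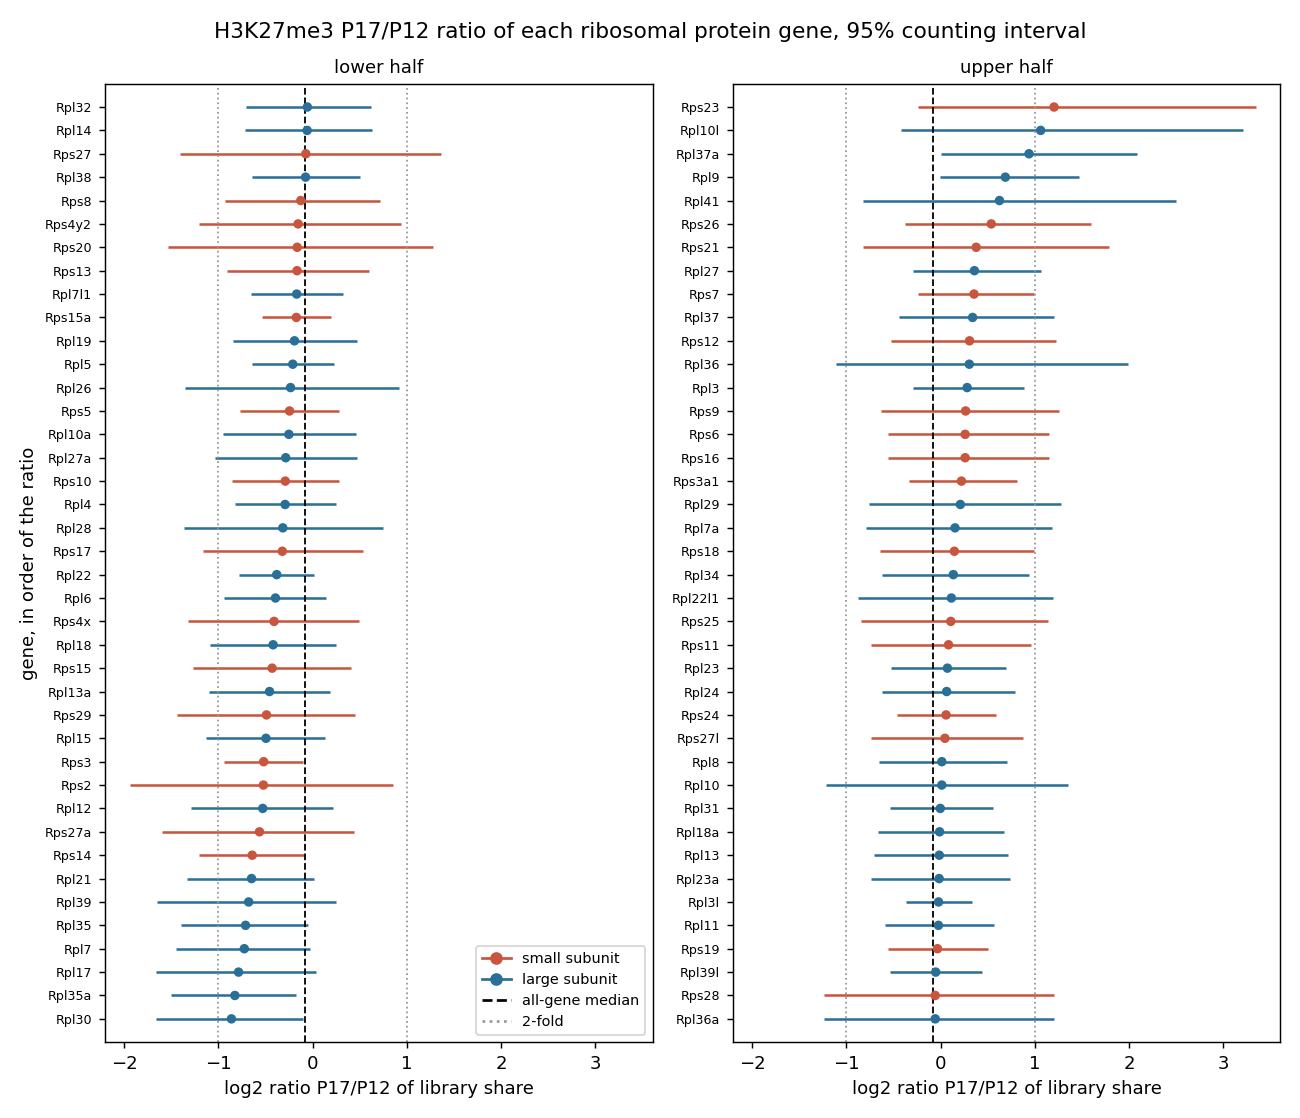
Log2 ratio P17/P12 of library share (x axis) for each of 80 ribosomal protein genes (rows, in order of the ratio), with 95% counting intervals as lines, coloured by subunit; the dashed line is the all-gene median of -0.08 and the dotted lines mark 2-fold. Of 80 intervals, 74 cross the dashed line, and the widest belong to genes such as Rps23 and Rpl10l with 4 reads at P12.

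Of the 80 members, 74 had an interval that spanned the ratio of the typical gene, taken as the all-gene median. The intervals of 2 members (2.50%) lay above it and those of 4 (5.00%) below it, against 21.2% and 10.1% of all genes. Among the 6889 genes with at least 20 reads and no more summed reads than Rpl3l, a background chosen after seeing the data, the shares were 6.88% and 5.12%. Members have wider intervals than most genes, which lowers the share that can be called, and the differences between these shares were not tested.

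The 2 members above the typical gene were large-subunit genes. Rpl37a, a zinc-binding protein gene, went from 11 reads (0.817 CPM) to 43 (1.61 CPM), a log2 ratio of 0.94 (95% interval 0.0013 to 2.09), or 1.01 with TMM factors. Rpl9 went from 22 reads (1.63 CPM) to 71 (2.66 CPM), a log2 ratio of 0.69 (-0.003 to 1.47). Both intervals began near a ratio of 1. The other highest ratios among members with at least 50 reads were those of Rps26 at 0.54 (13 and 38 reads), Rpl27 at 0.36 (27 and 69) and Rps7 at 0.36 (33 and 84), and all of these intervals included 1. Larger ratios stood on fewer reads. Rps23, a protein of the decoding centre singled out after its values were seen, had a log2 ratio of 1.21 (-0.24 to 3.34) on 4 and 20 reads, and Rpl10l had 1.06 (-0.42 to 3.21) on 4 and 18 reads. Neither could be told from no difference.

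The 4 members below the typical gene came from both subunits. Rpl30, whose protein can bind its own transcript, went from 29 reads (2.15 CPM) to 31 (1.16 CPM), a log2 ratio of -0.86 (-1.67 to -0.11). Rpl35a went from 39 reads (2.90 CPM) to 43 (1.61 CPM), a ratio of -0.83 (-1.50 to -0.18). Its span overlaps that of Iqcg in the GRCm38 gene table, and reads of overlapping genes cannot be told apart. The same holds for Rpl35 with Wdr38 and, among the members with the most reads, for Rpl5 with Fam69a. Rps3 went from 85 reads (6.31 CPM) to 117 (4.39 CPM), at -0.52 (-0.94 to -0.10). Rps14, named here because it was among the 4, went from 50 reads (3.71 CPM) to 63 (2.36 CPM), at -0.64 (-1.21 to -0.09). The other lowest ratios by rule were those of Rpl17 at -0.79 (24 and 27 reads), Rpl7 at -0.73 (33 and 39) and Rpl35 at -0.71 (36 and 43). Among these, the interval of Rpl17 included a ratio of 1. Those of Rpl7 and Rpl35 spanned the typical gene and lay below 1 with library totals, with upper log2 bounds of -0.03 and -0.05. TMM factors raise the bounds by 0.075, so that both intervals then included 1.

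Summed over all members, precision was higher. The 81 genes held 2376 reads at P12 and 4293 at P17, or 0.0176% and 0.0161% of each library total, a log2 ratio of -0.13 (-0.21 to -0.06). This interval held the all-gene median of -0.08, which is a median over genes and not a ratio of summed reads. The summed ratio of all single-entry genes, which weighs genes with many reads most, was 0.008 (0.007 to 0.009) and lay above the members' interval. These genes held 89.4% and 89.9% of the library totals, so scaling to totals holds their summed ratio near 0. The comparison thus adds little to one with 0. The members' interval lay below 0 with library totals but not with edgeR TMM factors, which gave -0.06 (-0.13 to 0.02). TMM factors raise all summed ratios alike, so they leave the gap between members and all single-entry genes as it was. Large-subunit genes had a summed log2 ratio of -0.15 (-0.24 to -0.06) on 1522 and 2714 reads, and small-subunit genes -0.10 (-0.22 to 0.02) on 854 and 1579 reads. TMM factors raise these bounds by 0.075, so that the large-subunit interval then included 0 as well. The intervals of both subunits overlapped. Their median ratios per gene were equal to the second decimal, -0.06 over 48 large-subunit and -0.06 over 32 small-subunit genes.

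Near relatives of canonical ribosomal protein genes, some of them made in a restricted set of tissues, formed 8 pairs with their canonical partners. In all 8 pairs the intervals of the P17/P12 ratio of relative and partner overlapped, and none of the 7 relatives and 8 partners with at least 20 reads was above or below the typical gene. Rpl3l stood at a log2 ratio of -0.02 (-0.37 to 0.34), the narrowest interval of the pairs and on the other side of 0 with TMM factors, and its partner Rpl3, a protein near the peptidyl transferase centre, stood at 0.28 (-0.29 to 0.89) on 36 and 87 reads. Rpl39l, the relative of Rpl39 made in testis, went from 56 reads (4.16 CPM) to 107 (4.01 CPM), at -0.05 (-0.53 to 0.44), also on the other side of 0 with TMM factors. Its partner Rpl39, a small protein lining the exit tunnel, went from 19 reads (1.41 CPM) to 23 (0.863 CPM), at -0.68 (-1.65 to 0.25). Rpl10l, which is required in male meiosis, stood at 1.06 on 4 and 18 reads as above, and its X-linked partner Rpl10 at 0.01 (-1.21 to 1.35) on 9 and 18 reads. At P17 both thus held the same number of reads.

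Rpl7l1 stood at -0.17 on 58 and 102 reads beside Rpl7 at -0.73. Rpl22l1 stood at 0.12 on 13 and 28 reads beside Rpl22 at -0.38, and Rps27l, a target of p53, at 0.05 on 21 and 43 reads beside Rps27 at -0.07. Rpl36al, an autosomal relative of X-linked Rpl36a, held 8 and 11 reads, and Rpl36a held 10 and 19, at -0.06 (0.01 with TMM factors). Rps4y2, an older symbol of Rps4l, which the GRCm38 gene table lists as a transcribed pseudogene lying over part of Tmtc1, held 13 and 23 reads at -0.15, beside X-linked Rps4x at -0.41 on 19 and 28 reads. The 8 relatives held 276 and 533 reads in all, a summed log2 ratio of -0.04 (-0.25 to 0.18), and their 8 partners 223 and 364 reads, -0.28 (-0.52 to -0.03). These intervals overlapped. Near-identical sequence in relatives and pseudogenes makes the assignment of exon reads uncertain, and how reads with several matches were treated is not given in the sources used here.

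**Figure D3:**
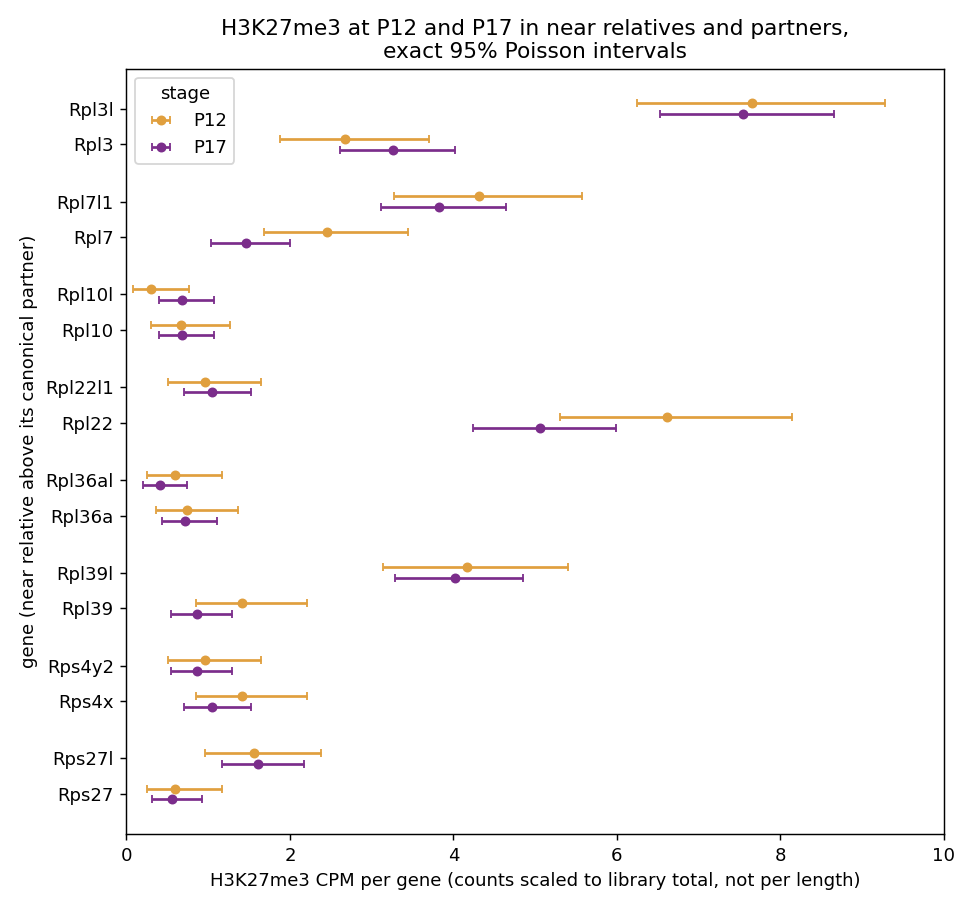
H3K27me3 CPM per gene (x axis, not per length) at P12 (orange) and P17 (purple) for 8 near relatives and, under each, its canonical partner; lines are exact 95% Poisson intervals, counting error only. In each gene the P12 and P17 intervals overlap, from Rpl3l at 7.65 and 7.54 to Rpl10l with 4 and 18 reads.

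The 4 X-linked members, Rpl10, Rpl36a, Rpl39 and Rps4x, held 9 to 19 reads at P12 and 18 to 28 at P17. All 4 intervals spanned the typical gene, and their summed log2 ratio was -0.36 (-0.86 to 0.15) on 57 and 88 reads. A difference in this ratio from the autosomal members, whose summed log2 ratio was -0.13, was not detectable at this depth. In reads per gene the X-linked members stood lower, with medians of 14.5 and 21 against 25 and 43 over all members. That difference in reads was not tested.

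Beside other genes of the ribosome, the members were alike in having few reads. The 7 ribosome genes with other names, among them the stalk genes Rplp0, Rplp1 and Rplp2, the laminin receptor gene Rpsa and the scaffold gene Gnb2l1, had a median of 33 and 52 reads, and all 7 lay below the all-gene median at both stages. Their median log2 ratio was -0.32, with 0 above and 1 of 7 below the typical gene, where 21.2% and 10.1% of all genes were. The gene below was Rpsa at -0.79 (-1.37 to -0.23) on 51 and 58 reads. The 6 pseudogene entries, such as Rpl34-ps1, had medians of 6.5 and 13.5 reads. Rn45s, the precursor of ribosomal RNA and a multicopy repeat, went from 3250 to 7779 CPM on 43756 and 207433 reads, a log2 ratio of 1.26. Its count depends on how repeats were aligned.

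Genes of related constitutive machinery held more reads per gene, and their median ratios ran from -0.22 to -0.08. The 76 mitochondrial ribosomal protein genes had medians of 61.5 and 118 reads and a median log2 ratio of -0.08, with 2 above and 5 below the typical gene. The 36 respiratory complex I genes had medians of 81 and 131 reads and a ratio of -0.22, with 0 above and 4 below. For 39 proteasome genes the medians were 106 and 198 reads and the ratio -0.11, with 3 above and 6 below. For 40 translation factors they were 126.5 and 246.5 reads and -0.22 (1 above, 4 below), and for 55 ribosome biogenesis genes 127 and 232 reads and -0.14 (1 above, 6 below of 54 tested). The single biogenesis gene above was Ubtf, which encodes the RNA polymerase I factor UBF, at 1.495 (1.32 to 1.67) on 320 and 1789 reads. Among translation factors, Eef1a1, the ubiquitous elongation factor gene, held 26 and 36 reads, and its neuron and muscle paralog Eef1a2 held 497 and 986. The 39 Hox genes, a reference for Polycomb targets, had medians of 514 and 1455 reads and a ratio of 0.41, with 36 above and 1 below. Marker genes of the testis were also read: 23 spermatocyte genes had medians of 368 and 650 reads and a ratio of -0.21 (1 above, 10 below), 19 Sertoli cell genes 268 and 1089 reads and 0.45 (11 above, 1 below), and 14 Leydig and other somatic genes 417.5 and 782.5 reads and -0.07 (4 above, 2 below). Over all genes, 21.2% were above and 10.1% below the typical gene. Differences between lists were not tested.

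**Figure D4:**
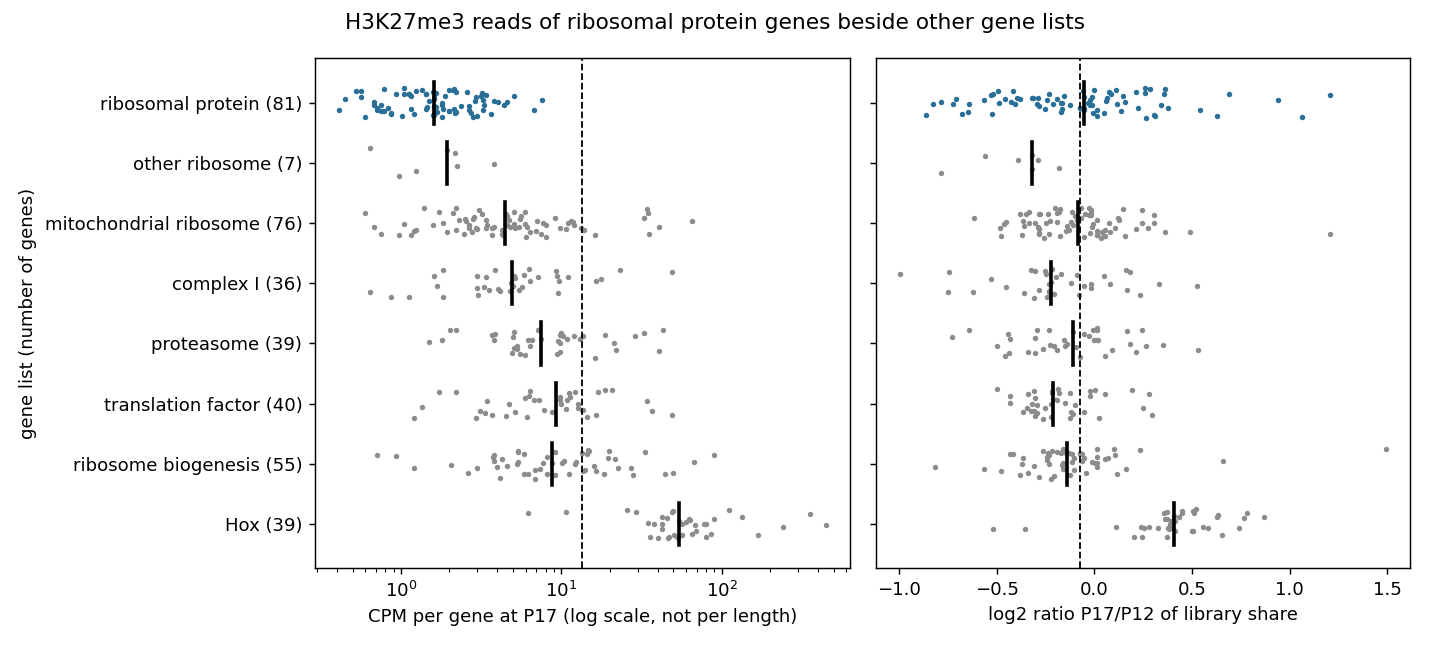
CPM per gene at P17 (left, log scale, not per length) and log2 ratio P17/P12 of library share (right) for ribosomal protein genes (blue) and 7 other gene lists (grey, number of genes in brackets); points are genes, bars are list medians and dashed lines are all-gene medians; genes at 0 reads are not drawn on the left. Ribosomal protein genes have the lowest median on the left, 1.61, and all of them lie left of the all-gene median, while on the right their median is -0.06 and that of all genes -0.08.

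The genes beside the members held more reads per gene. The protein-coding genes on either side of the members in the GRCm38 gene table, 157 genes in all, had medians of 210 and 483 reads. Their median log2 ratio was -0.06, with 39 above and 11 below the typical gene, where 21.2% and 10.1% of all genes were. Of 81 members, 74 held fewer P17 reads than both of their flanking genes, again per gene and not per length. How often this holds over all genes was not computed, so the count is no result apart from the low reads of members. Rpl10l lies next to Mdga2, a long neuronal gene with 5901 and 11120 reads, and Rpl39l next to the glutamate receptor gene Grin2a with 5864 and 10712 reads. According to the same source, 30 small nucleolar RNA entries lie within 20 members, since introns of ribosomal protein genes often host these guides of ribosomal RNA modification. They held 46 and 77 reads in all and at most 7 each at P17. Spans of 12 members overlapped a protein-coding entry; without these 12, chosen after seeing the data, the median ratio of the members was -0.05, with 2 above and 3 below the typical gene.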

How the data were processed

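H3K27me3 was measured at P12 and P17. Reads were aligned to mm9, and the submitters' processing notes name Bowtie, SAMtools and HTSeq without roles or versions. For each stage the authors deposited unnormalized counts of reads over gene bodies, 13462873 at P12 and 26664736 at P17; the file names point to multiBamCov, and input subtraction is not recorded. Peak lists were not used, since no gene models in mm9 were at hand. Ratios used library totals, 1 added read in proportion to library size, and genes with at least 20 reads over both; symbols with several entries stayed in totals only. Intervals (95%) were exact: conditional Clopper-Pearson for ratios, Poisson for levels. No test was run across samples, because there is 1 count file per stage. The calculations (scipy 1.17.1, edgeR 4.0.16 for TMM factors) were tested on simulated data. Names and neighbours came from the RefSeq GRCm38.p6 table, where 80 members matched by symbol and 1 by synonym. Named members were the 5 highest and lowest ratios (at least 50 reads) and P17 counts, relatives, partners and X-linked genes; comparison lists were named by their extremes. Members, lists and rules were chosen with earlier results of these data known.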

Additional observations from a re-analysis of the deposited data

How the results depend on the processing

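A scaling multiplies all genes of a library alike, so it cannot change which members lie below the all-gene median or on which side of the typical gene an interval falls. Scaling moved the ratios: edgeR TMM factors and median-of-ratios factors raised log2 ratios by up to 0.08, less for genes with few reads. The summed log2 ratio became -0.0572 with TMM and -0.0537 with median-of-ratios factors, and both intervals then included 0. The median ratio turned from -0.06 to 0.0147 with TMM and 0.018 with median-of-ratios factors, while the all-gene median moved alike to -0.002 and 0.0015. With either factor 1 member, Rpl37a, was over 2-fold higher. Counts above and below the typical gene went from 2 and 4 to 0 and 2 when at least 100 reads were required, since fewer genes were then tested. The number of members tested and the all-gene shares at 100 reads are not given here, so these counts have no background beside them. Leaving out near relatives or X-linked members gave 2 and 4, since none of those left out had been called, and adding the 7 ribosome genes with other names gave 2 and 5. Without the 12 members that overlap a protein-coding entry, chosen after seeing the data, they were 2 and 3, since Rpl35a is among the 12. Of 30 named genes, 3 (Rpl3l, Rpl39l and Rpl36a) had the other sign with TMM or median-of-ratios factors. Reads per kb could not be computed without mm9 gene models. No paired analysis was possible because each stage has 1 file and the P17 file pools its replicates. Depth limits single genes: 31 members had under 20 reads at P12.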
